A study of Mus musculus with 34 samples.

Results

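The macrophage genes comprised 10 members of 25965 entries in the count table of mouse cumulus cells (CCs): the chemokines Ccl7 and Ccl2, the receptors C3ar1, Csf1r and Emr1 (now named Adgre1), the adaptors Fcer1g and Tyrobp, and the lysosomal genes Cd68, Lyz2 and Ctss. They were chosen by the levels of Ccl7 and C3ar1, which stood higher in mice given 16 weeks of high-fat diet (HFD) than in mice on chow diet (CD), and joined with general macrophage genes, to ask whether Ccl7 followed macrophage RNA from library to library. The 16-week values are therefore given as a description without a test, and tests are given for leptin injection and for 4 weeks of HFD. All mice were C57BL/6J females, 8 weeks old at the start, and were superovulated before about 50 CCs were taken. For hyperleptinemia, 5 libraries came from mice injected intraperitoneally over 16 days with leptin, at a daily total of 100 μg (16 L), and 3 from mice injected with saline (16 C). For diet-induced obesity (DIO), the 4-week groups held 5 libraries on CD and 5 on HFD, and the 16-week groups 6 on CD and 7 on HFD. Another 3 libraries of the 16-week HFD arm were labelled as low weight gainers. The labels give 11% of energy as fat for CD and 58% for HFD. Levels are given in RPM, the reads of a gene scaled to the counted reads of its library.

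Tissue macrophages live under the control of colony stimulating factors, take up cells and debris, and degrade them in lysosomes. Their surface receptors signal through small adaptor proteins that carry immunoreceptor tyrosine-based activation motifs (ITAM). Chemokines of the CC family, which Ccl7 and Ccl2 encode, draw monocytes out of the blood, and can be made by stromal and epithelial cells as well as by macrophages. In the ovary, macrophages lie in the stroma and around follicles, and leukocytes gather near the follicle at ovulation.

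The libraries held 1104611 to 13207018 counted reads, so that an absence of reads allowed up to 0.227 to 2.72 RPM (3 reads, counting error only). Cumulus markers summed to 3131 RPM or more in every library but 16 L replicate 18, where they summed to 843 RPM. That library also held 31552 RPM of oviduct markers, 14533 RPM of red blood cell markers and 1600 RPM of stroma markers, and 16 L replicate 21 held 7607 RPM of red blood cell markers. Oviduct markers also reached 2431, 1862 and 884 RPM in 16 L replicates 21, 20 and 23, against 158 RPM in replicate 19 and 129 to 162 RPM in 16 C. For 16 L, the numbers of members and genes called and the values of Ccl7, C3ar1 and Cd68 are therefore given also without replicates 18 and 21. Other 16 L results include all 5 libraries unless a library is said to be left out. The 23 other macrophage genes in the table, none of them a member, are called the macrophage list below and their RPM were summed. No defining macrophage marker among the members was absent from a whole group, and of the list only Cd163 had no read in all libraries of a group (16 C and the low weight gainers).

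The start regions of the members that could be matched are shown first, since the members were considered as a group that may move together. RefSeq start regions (250 bases before to 50 after the start, GRCm38.p6) were at hand for C3ar1, Cd68, Ctss, Fcer1g and Lyz2. The 3 printed here cover both motifs searched, on both strands: AGGAAG, a core bound by ETS factors such as the macrophage factor PU.1, and TGANTCA, bound by AP-1. Capitals mark the matches, and each sequence reads 5′ to 3′ on the strand of the gene, the minus strand in all 3. C3ar1 lies at chr6:122856108-122856407, Cd68 at chr11:69666121-69666420 and Lyz2 at chr10:117282223-117282522.
C3ar1: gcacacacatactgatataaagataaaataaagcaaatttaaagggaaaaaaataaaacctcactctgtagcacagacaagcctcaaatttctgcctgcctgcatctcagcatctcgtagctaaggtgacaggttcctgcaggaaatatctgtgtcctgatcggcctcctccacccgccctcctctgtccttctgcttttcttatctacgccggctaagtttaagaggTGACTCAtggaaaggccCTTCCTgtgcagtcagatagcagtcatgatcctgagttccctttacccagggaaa
Cd68: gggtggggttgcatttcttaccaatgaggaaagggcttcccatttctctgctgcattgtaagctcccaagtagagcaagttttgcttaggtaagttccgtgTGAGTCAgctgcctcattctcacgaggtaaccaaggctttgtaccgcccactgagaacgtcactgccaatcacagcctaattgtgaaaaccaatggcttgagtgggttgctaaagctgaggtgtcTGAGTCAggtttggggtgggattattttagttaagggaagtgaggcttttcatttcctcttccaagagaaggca
Lyz2: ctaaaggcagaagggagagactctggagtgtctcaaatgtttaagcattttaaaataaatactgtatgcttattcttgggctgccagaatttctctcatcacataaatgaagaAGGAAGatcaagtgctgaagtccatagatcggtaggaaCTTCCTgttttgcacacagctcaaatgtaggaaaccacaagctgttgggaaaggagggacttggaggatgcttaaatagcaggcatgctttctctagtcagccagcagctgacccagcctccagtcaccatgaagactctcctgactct
C3ar1 held both motifs close to its start, Cd68 held TGANTCA at 2 places and Lyz2 held AGGAAG on each strand, and no match overlapped another. AGGAAG was found in 4 of the 5 start regions (C3ar1, Ctss, Fcer1g and Lyz2), against 35.4% of 32851 start regions. TGANTCA was found in 2 of the 5 (C3ar1 and Cd68), against 7.81%. These are matches of letters and do not show that a factor was bound.

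Per kilobase of exon, the members spanned a wide range of levels. Lyz2, which encodes lysozyme, had the highest median over the 34 libraries at 98.9 RPM per kb, followed by Ctss, the lysosomal protease cathepsin S, at 21.5, and Cd68, a lysosomal membrane glycoprotein, at 14.4. The adaptors Fcer1g (12.5) and Tyrobp (12.3) came next, and lay closer to each other than the spread over libraries. Ccl7 had a median of 3.18 RPM per kb, Csf1r, the receptor of colony stimulating factor 1, 1.92, C3ar1, the receptor of complement fragment C3a, 1.74, Emr1, an adhesion receptor used as a macrophage marker, 1.24, and Ccl2 1.18. The ranges of these last 5 genes over the libraries overlapped. Ccl7 was read in 28 libraries, Ccl2 in 29, Emr1 in 30 and the other 7 members in all 34. Ccl2 lies at chr11:82035571-82037453 and Ccl7 beside it at chr11:82045712-82047525, both on the plus strand of GRCm38. Ccl2 overlaps Gm17268, and Csf1r overlaps Hmgxb3, on the opposite strand, and reads of such pairs cannot be told apart without strand. Reads of Lyz2 may be shared with its near copy Lyz1, which was read at up to 36.9 RPM.

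**Figure D1:**
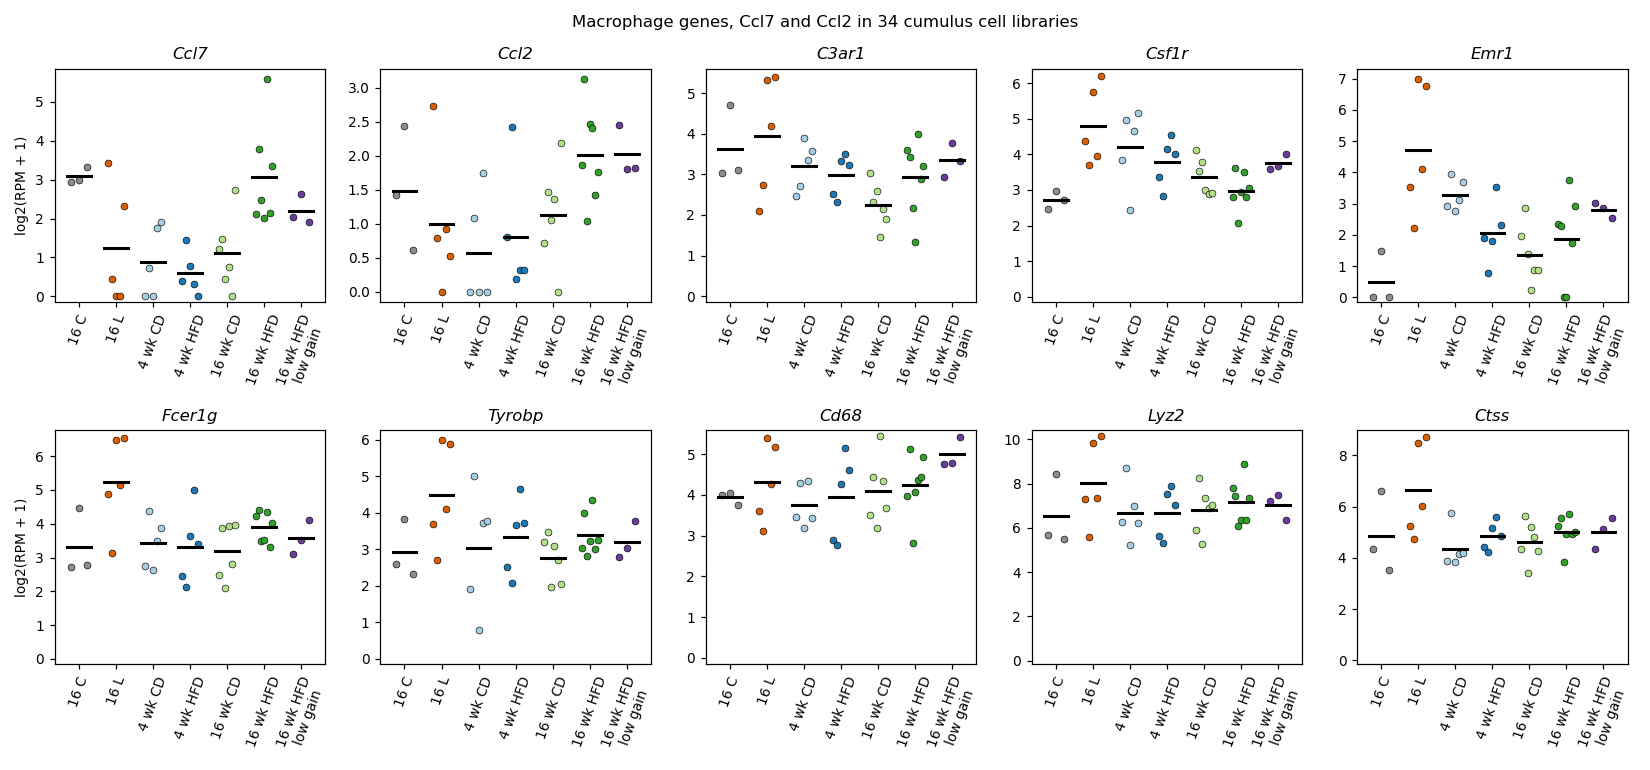
Level of each member in the 34 libraries, as log2(RPM + 1) on the y axis, by group on the x axis; points are libraries and lines are group means. Ccl7 is highest in 16-week HFD replicate 15 (46.8 RPM), and Emr1, Csf1r, Fcer1g, Tyrobp, Lyz2 and Ctss reach their highest values in 16 L replicates 20 and 23.

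Over the 34 libraries the 8 members other than the chemokines varied together, and Ccl7 was only weakly related to them. Spearman correlations among the 28 pairs of the 8 ran from 0.33 to 0.86, with a median of 0.57. Those of Ccl7 with the 8 ran from -0.28 to 0.25, with a median of 0.10. These are descriptions over libraries that differ in depth, diet and treatment. With group ranks removed, the pairs of the 8 had a median of 0.64. Ccl7 with the 8 then ran from -0.07 to 0.27, with a median of 0.17. The genes most like the sum of the 8 were Cd300ld (rho 0.85), the complement gene C1qc (0.84), the co-receptor Cd14 (0.83) and the chemokines Ccl6 (0.83) and Pf4 (0.83), of 13960 genes ranked. The genes most like Ccl7 were Inpp4a (0.83), Ppm1h (0.82), the clock gene Per3 (0.82), Chchd7 (0.82) and the sterol transporter Abcg1 (0.82), of 13967 ranked. Ccl2 stood at rank 214 on that scale (0.69), and none of the 8 exceeded Fcer1g at rank 1994 (0.25). With group ranks removed, the genes named as most like Ccl7 ran from 0.61 (Ppm1h) to 0.73 (Per3), and Ccl2 stood at 0.56.

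After 16 weeks, Ccl7 stood higher in HFD than in CD. In CD its level ran from 0 RPM (replicate 8) through a median of 1.00 to 5.67 RPM (replicate 9). In HFD it ran from 3.01 RPM (replicate 14) through a median of 4.60 to 46.8 RPM (replicate 15). All 7 HFD libraries exceeded the CD median, and 3 of 7 (replicates 11, 15 and 6) exceeded every CD library, so that the groups overlapped. The means were 11.9 ± 15.8 RPM (SD, n = 7) and 1.63 ± 2.08 (SD, n = 6), and the fitted log2 fold change was 2.91 ± 0.83 (SE). Without HFD replicate 15 the HFD mean was 6.07 ± 4.05 RPM and the log2 fold change 1.96, and without CD replicate 9 it was 4.25. Ccl2, the neighbouring chemokine gene, had too few reads for the fit, with a mean of 3.48 ± 2.26 RPM in HFD against 1.44 ± 1.22 in CD. Its HFD libraries ran from 1.06 to 7.73 RPM and its CD libraries from 0 to 3.57 RPM. Cumulus markers summed to 3131 to 4381 RPM (median 3826) in HFD and 4056 to 7175 RPM (median 5716) in CD, and the part of this in the Ccl7 values was not tested.

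The receptors and adaptors showed smaller differences at 16 weeks. C3ar1 ran from 1.50 through a median of 8.24 to 15.1 RPM in HFD, and from 1.75 through 3.69 to 7.18 RPM in CD. Its HFD libraries thus held both the lowest and the highest value, with a fitted log2 fold change of 1.40 ± 0.42 (SE). Emr1 differed by 1.47 ± 0.79 (SE) and had no read in 2 HFD libraries (replicates 12 and 14). Tyrobp differed by 1.03 ± 0.37 and Fcer1g by 0.84 ± 0.42, and Csf1r differed by -0.10 ± 0.29. The lysosomal genes differed by 0.62 ± 0.36 (Ctss), 0.61 ± 0.52 (Lyz2) and 0.34 ± 0.41 (Cd68). Of the 9 members fitted, 8 had a value above 0, as did 46.6% of 10861 genes. A value above 1 was found for 4 (Ccl7, C3ar1, Emr1 and Tyrobp), as for 2.82% of genes. Ccl7 and C3ar1 were chosen because they stood higher in this comparison, so the counts cannot be read as an excess over those shares. The libraries overlapped for all 10 members, and 0.157% of genes had every HFD library above every CD library. The median was 0.84 over the 9 members, 0.73 over the 8 without Ccl7 (C3ar1 still among them) and -0.05 over all genes. In bulk RNA of this kind, fewer cells of a type and less RNA per cell cannot be told apart.

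The macrophage list summed to 127 to 252 RPM (median 178) in 16-week CD and to 95.2 to 384 RPM (median 192) in HFD. Gene by gene, 16 of its 18 genes fitted had a log2 fold change above 0, as did 46.6% of all genes. The median was 0.34, against -0.05 over all genes. The lists were chosen with earlier results of these data known, so the count is not read as an excess over that share. HFD replicate 15 held the highest value of both the list (384 RPM) and Ccl7. HFD replicate 10 held nearly as much of the list (359 RPM) but only 3.37 RPM of Ccl7, and replicate 12, with the lowest list value, held 4.60 RPM. Per 100 reads of the list, Ccl7 had a mean of 4.74 reads in HFD (median 3.70, range 0.939 to 12.2) and 0.867 in CD (median 0.512, range 0 to 3.04). The CD mean was 0.432 without replicate 9, and the HFD mean 3.49 without replicate 15. The same ratio for C3ar1 had a median of 3.72 in HFD and 1.79 in CD, with ranges of 1.07 to 5.13 and 0.801 to 4.68. Lymphocyte markers were also uneven over the HFD libraries, from 0.354 to 57.3 RPM, with the highest sums in replicates 15 (57.3) and 10 (55.7), and their part in these values was not tested.

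**Figure D2:**
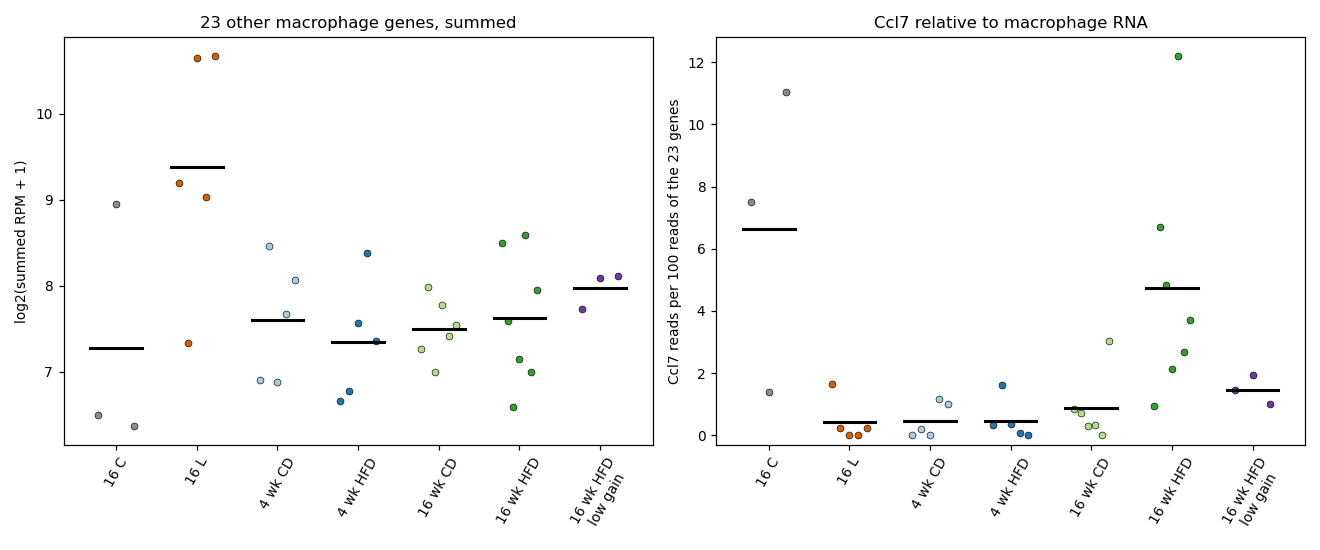
Left, summed level of the 23 other macrophage genes as log2(summed RPM + 1); right, Ccl7 reads per 100 reads of those genes; both by group on the x axis, with points for libraries and lines for group means. The list is highest in 16 L replicates 20 (1605 RPM) and 23 (1635 RPM), whereas the ratio is at most 1.65 in 16 L and reaches 11.0 in 16 C and 12.2 in 16-week HFD.

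Whether Ccl7 followed macrophage RNA was asked within groups, on log2(RPM + 1), as 12 relations with p-values adjusted over them. In the 7 libraries of 16-week HFD, Ccl7 and the macrophage list gave r = 0.57 (exact permutation p = 0.183, adjusted 0.429) and rho = 0.39 (p = 0.396, adjusted 0.432). It was 0.19 once replicates 12 and 15, whose list values lay farthest from the group median, were left out. The value was 0.21 without replicate 15 alone and 0.89 without replicate 10 (exact permutation p = 0.0194), so that it depended on single libraries. That p-value was not adjusted over the 12 relations and is not set against the threshold. In the 6 libraries of 16-week CD, r was 0.33 (exact permutation p = 0.536, adjusted 0.585) and rho 0.49 (p = 0.356, adjusted 0.427). Without the 2 farthest libraries r was 0.07. Over all 34 libraries, with group means removed, Ccl7 and the list gave r = 0.26 (permutation within groups, p = 0.250, adjusted 0.429), rho = 0.25 (p = 0.165, adjusted 0.363) and r = 0.25 without the 2 farthest. A relation of Ccl7 with macrophage RNA was therefore not detectable within these groups.

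C3ar1 did vary with the macrophage list, and Ccl7 with Ccl2, over the 34 libraries. C3ar1 and the list gave r = 0.65 (permutation p = 0.00250, adjusted 0.0150) and rho = 0.53 (p = 0.00546, adjusted 0.0328), with r = 0.58 without the 2 farthest libraries. In 16-week HFD alone it was r = 0.78 (exact permutation p = 0.0385, adjusted 0.115), and 0.65 without replicates 12 and 15. In 16-week CD the sign was opposite, with r = -0.57 (exact permutation p = 0.231, adjusted 0.429) and rho = -0.60. Without CD replicates 13 and 2, r was -0.95. Ccl7 and Ccl2 gave r = 0.57 (permutation p = 0.00184, adjusted 0.0150) and rho = 0.56 (p = 0.00309, adjusted 0.0328), with r = 0.45 without the 2 farthest (16 L replicate 18 and 4-week HFD replicate 14). In 16-week CD this relation was r = 0.86 (exact permutation p = 0.0375, adjusted 0.115) and 0.14 without replicates 8 and 9, and in 16-week HFD it was r = 0.46 (exact permutation p = 0.310, adjusted 0.465). Ccl2 and the list gave r = 0.10 over the 34 libraries (permutation p = 0.666, adjusted 0.666). The difference between the relations of Ccl7 and of C3ar1 with the list was not tested.

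**Figure D3:**
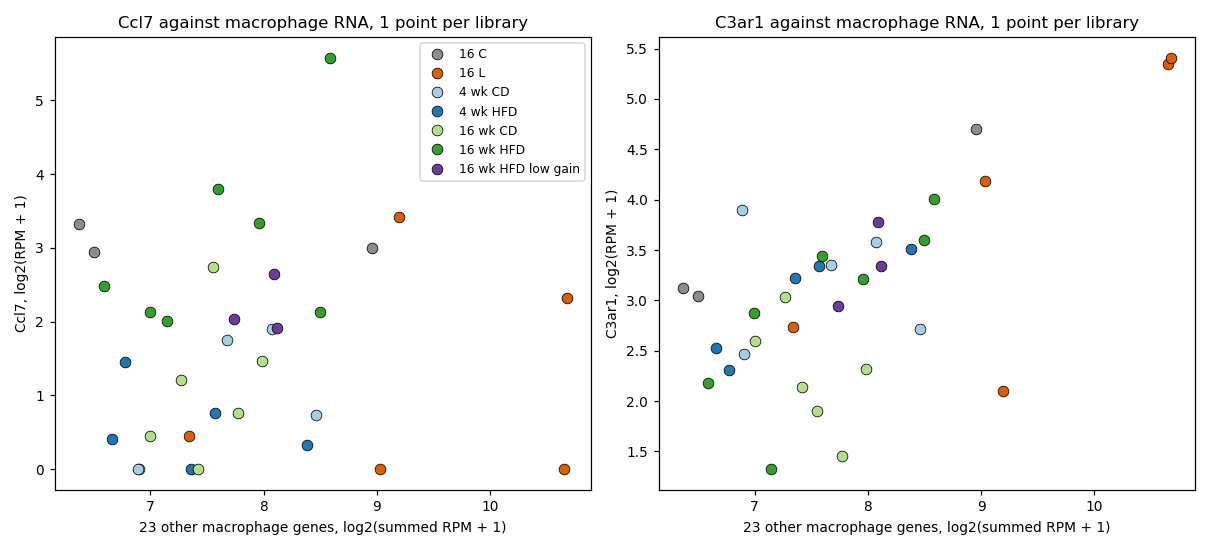
Ccl7 (left) and C3ar1 (right) as log2(RPM + 1) against the 23 other macrophage genes as log2(summed RPM + 1), 1 point per library, coloured by group. Over all libraries with group means removed, Ccl7 gave r = 0.26 with the list and C3ar1 r = 0.65. The 2 points farthest right are 16 L replicates 20 and 23.

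With leptin, no member passed the adjusted threshold of 0.05. The receptors Emr1 and Csf1r, 2 of the 9 members tested, stood higher in every treated library, as did 26.8% of genes. Ccl7 stood below every control in 4 of 5. edgeR's quasi-likelihood test called 0 of the 9 members tested, against 8.56% of 11723 genes (476 higher and 528 lower in 16 L). At an unadjusted p under 0.05 it gave 2 of 9 (Emr1 and Csf1r, both higher), against 32.4% of genes in either direction and 19.9% higher. DESeq2 called 1 of 10 members (Emr1), and 2382 of the 18962 genes with a read. It may leave some of these without an adjusted p, so this is not a share of genes tested. Emr1 had 0, 1.82 and 0 RPM in 16 C, and 10.4, 3.62, 124, 16.3 and 108 RPM in 16 L replicates 18, 19, 20, 21 and 23. All 5 treated libraries exceeded all 3 controls, as they did for 26.8% of genes. Emr1 had 24 reads in 16 C, all in replicate 2, and passed the filter on low counts only through its 16 L libraries. A fall could therefore not have been called. The log2 fold change of Emr1 was 4.89 ± 1.47 (SE) with edgeR's adjusted p = 0.0635. Its adjusted p was 0.0173 without 16 L replicate 18 and 0.00111 with DESeq2, and ran from 0.00111 to 0.213 over its 14 alternatives. Csf1r had 4.47, 6.89 and 5.57 RPM in 16 C, and 19.7, 12.1, 53.2, 14.5 and 72.7 RPM in 16 L in the same order. It too did not overlap between the groups, with a log2 fold change of 1.71 ± 0.64 (SE) and edgeR's adjusted p = 0.108. C3ar1, by contrast, had 7.27, 25.1 and 7.69 RPM in 16 C against 3.28, 5.67, 39.6, 17.2 and 41.5 RPM in 16 L, and overlapped widely (log2 fold change -0.33 ± 0.79, edgeR's adjusted p = 0.794).

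Ccl7 had 6.71, 6.97 and 9.02 RPM in 16 C and 9.69, 0.362, 0, 0 and 4.01 RPM in 16 L replicates 18, 19, 20, 21 and 23. The 4 treated libraries other than replicate 18 lay below every control, and the absence of reads in replicates 20 and 21 allowed at most 1.70 and 2.72 RPM. The log2 fold change over all libraries was -1.81 ± 1.20 (SE, edgeR's adjusted p = 0.316). Without replicate 18, the library with the oviduct, stroma and red blood cell markers, Ccl7 fell by 3.75 on the log2 scale (SE 0.95, edgeR's adjusted p = 0.0114). That fit called 4635 of 11077 genes. Without replicates 18 and 21, a choice made after seeing the data, Ccl7 fell by 3.41 (SE 0.94, edgeR's adjusted p = 0.0198). There 3 of 9 members passed (Ccl7, Emr1 and Csf1r), against 4145 of 10959 genes. Over its 14 alternatives the adjusted p of Ccl7 ran from 0.0114 to 0.516, and only these 2 fits passed. Per 100 reads of the macrophage list, Ccl7 had 7.50, 1.41 and 11.0 reads in 16 C and 1.65, 0.225, 0, 0 and 0.245 in 16 L. Ccl2 had 1.68, 4.39 and 0.530 RPM in 16 C and 5.67, 0.724, 0, 0.905 and 0.446 RPM in 16 L. It failed the filter on low counts, and the difference of -0.49 in mean log2(RPM + 1) gave an exact permutation p = 0.50 (adjusted over all entries that failed the filter, 1), where the smallest possible p is 0.0179.

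The adaptors and lysosomal genes did not pass in 16 L. Fcer1g ran from 7.84 to 91.9 RPM in 16 L and from 5.59 to 20.9 RPM in 16 C, with 4 of 5 treated libraries above all controls. Its log2 fold change was 1.25 ± 0.79 (SE, edgeR's adjusted p = 0.291), beside 1.08 ± 0.80 for Tyrobp. Ctss differed by 1.07 ± 1.05, Lyz2 by 0.74 ± 1.06 and Cd68 by -0.22 ± 0.52. The signs of C3ar1 and Cd68 were positive when libraries were scaled by total counts, a scaling that moved the median of all genes from 0.27 to 1.08 and called 3652 genes higher and 383 lower. The highest values of Fcer1g, Tyrobp, Ctss and Lyz2 lay in 16 L replicates 20 and 23 and, among the controls, in 16 C replicate 2, for Lyz2 917, 1140.2 and 345 RPM. The macrophage list followed the same order, with 1605 and 1635 RPM in those treated libraries, 161 to 586 RPM in the other 3, and 89.4, 495 and 81.7 RPM in 16 C. In replicates 20 and 23 dendritic cell markers summed to 873 and 842 RPM (58.9 to 127 in 16 C), lymphocyte markers to 89.9 and 96.4 RPM (0.530 to 10.6 in 16 C) and oviduct markers to 1862 and 884 RPM, and their part in these values was not tested. Of the 20 macrophage list genes tested, 1 rose (Laptm5, a lysosomal membrane protein of blood cells, log2 fold change 5.30, edgeR's adjusted p = 0.0493) and none fell, against 8.56% of 11723 genes called. At an unadjusted p under 0.05, 3 rose and none fell, against 19.9% of genes higher. Laptm5 had 27 reads in 16 C, at most 2.04 RPM, and passed the filter on low counts only through 16 L. The median log2 fold change was 1.52 over the list, 1.07 over the 8 members and 0.27 over all genes.

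**Figure D4:**
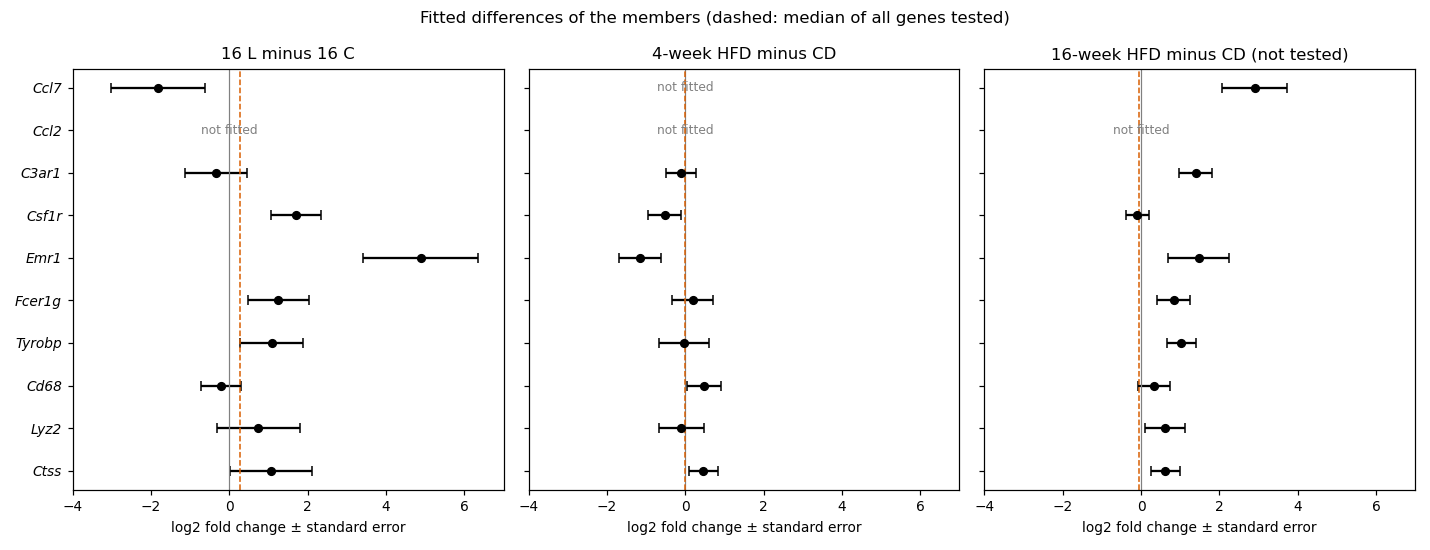
Fitted log2 fold change of each member with its standard error (bars, derived from the F statistic of the fit) in 16 L against 16 C, 4-week HFD against CD and 16-week HFD against CD, with the median of all genes as a dashed line. Ccl7 lies at -1.81 with leptin and 2.91 after 16 weeks of HFD, and Emr1 lies at 4.89, -1.15 and 1.47.

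Around the members, other genes of the same pathways were mostly uncalled with leptin. None of 10 other chemokines tested, 3 chemokine receptors, 12 complement genes or 11 partners of the ITAM adaptors passed in either direction by edgeR's adjusted p. At an unadjusted p under 0.05, 2, 0, 7 and 2 of them were higher and none lower. Of all 11723 genes, 8.56% passed by adjusted p. At an unadjusted p under 0.05, 19.9% of genes were higher and 32.4% differed in either direction. The most abundant chemokine beside the members, Ccl6, had a mean of 209 RPM in 16 L and 63.1 RPM in 16 C. Among 18 inducers of chemokine genes tested, Rela, a subunit of NF-kB, rose (log2 fold change 2.03 ± 0.49, edgeR's adjusted p = 0.0395) and none fell. Of the markers of other cells, the antigen presentation gene H2-Eb1 rose (3.14 ± 0.80, edgeR's adjusted p = 0.0433), as did Ltf, the neutrophil granule protein lactoferrin (6.89 ± 1.83, edgeR's adjusted p = 0.0477). Ltf had 7 reads in 16 C, at most 0.530 RPM, and passed the filter on low counts only through 16 L. Among 4 neutrophil genes tested, 1 was higher (Ltf) and 1 lower at an unadjusted p under 0.05, against 32.4% of genes in either direction. Ly6g and Ngp had no read in 16 L. Neutrophil markers summed highest (217 RPM) in 16 L replicate 18, and the part of other cells in the Ltf value was not tested. The steroidogenic gene Star fell by 1.58 (SE 0.38, edgeR's adjusted p = 0.0394). Rela, H2-Eb1, Ltf, Star and Laptm5 each stayed past the threshold in 2 of the 8 fits that left out a library.

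After 4 weeks of HFD no member was called. edgeR's quasi-likelihood test called 0 of 8 members tested, against 4.26% of 11727 genes, and 1 (Emr1) was lower at an unadjusted p under 0.05, against 24.3% of genes in either direction and 13.4% lower; DESeq2 called 0 as well. Emr1 had 14.3, 6.51, 5.87, 7.60 and 12.0 RPM in CD and 2.70, 0.712, 2.53, 10.6 and 3.93 RPM in HFD. Thus 4 of 5 HFD libraries lay below all CD libraries and replicate 4 did not, with a log2 fold change of -1.15 ± 0.53 (SE, edgeR's adjusted p = 0.196). Csf1r differed by -0.52 ± 0.42 and C3ar1 by -0.12 ± 0.38. The values were 0.19 ± 0.52 for Fcer1g, -0.03 ± 0.63 for Tyrobp, 0.47 ± 0.43 for Cd68, 0.47 ± 0.38 for Ctss and -0.09 ± 0.57 for Lyz2. Ctss passed only without CD replicate 11, its highest CD library (1.05, edgeR's adjusted p = 0.0310), and its adjusted p ran up to 0.737 over 16 alternatives.

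Ccl7 was low in both 4-week groups. It had 0.669, 0, 0, 2.36 and 2.73 RPM in CD replicates 11, 1, 2, 7 and 8, and 0.324, 1.74, 0.703, 0.253 and 0 RPM in HFD replicates 13, 14, 3, 4 and 5. The groups overlapped, and the difference of -0.29 in mean log2(RPM + 1) gave an exact permutation p = 0.571 (adjusted 1; smallest possible 0.00794). Ccl2 differed by 0.25 on that scale (exact permutation p = 0.627, adjusted 1), with 4.35 RPM in HFD replicate 14 and at most 2.36 RPM in CD. The macrophage list summed to 117 to 351 RPM in CD and 100 to 332 RPM in HFD. None of its 18 genes tested was called by edgeR, against 4.26% of genes. At an unadjusted p under 0.05, 1 was lower, against 13.4% of genes. Csf2rb, a receptor subunit for granulocyte-macrophage colony stimulating factor, fell by 1.04 on the log2 scale (SE 0.26, edgeR's adjusted p = 0.0369), and the follicle stimulating hormone receptor Fshr, a granulosa gene, rose by 1.87 (SE 0.42, edgeR's adjusted p = 0.0281). Both were lost in some fits that left out a library, with 3 and 4 of 10 fits keeping them. No gene of the other chemokine (6 tested), chemokine receptor (3), complement (10), ITAM partner (8) or inducer (19) lists was called by edgeR, with 5 higher and 8 lower at an unadjusted p under 0.05. Of all 11727 genes, 24.3% had such a p in either direction and 13.4% were lower.

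The low weight gainers, which share the HFD and CD libraries above as comparators, are given as a description. Ccl7 had 3.11, 5.25 and 2.78 RPM in replicates 21, 22 and 23, a mean of 3.71 ± 1.34 (SD, n = 3). These values lay within the range of 16-week CD only through CD replicate 9 (5.67 RPM, next 1.77), and above every other CD library. The fitted log2 fold change against CD was 1.15 ± 0.95 (SE). Only replicate 23 lay below every 16-week HFD library. The mean log2(RPM + 1) was 0.87 below that of HFD, and 0.45 below it without HFD replicate 15. C3ar1 had 6.67, 12.7 and 9.11 RPM, within the HFD range, and Emr1 7.12, 6.24 and 4.81 RPM. Csf1r, at 11.0, 11.7 and 15.2 RPM, and Cd68, at 26.2, 26.7 and 41.8 RPM, lay above their 16-week HFD means of 7.24 and 20.0 RPM. The 8 members without the chemokines all had a fitted value above 0 against 16-week CD, as did 44.3% of genes, and 4 of the 8 did against 16-week HFD, as did 48.3%. C3ar1, which is among the 8, was chosen by its level in these comparators, so the counts cannot be read as an excess over those shares. The macrophage list summed to 212 to 276 RPM, and Ccl7 had 1.01 to 1.93 reads per 100 reads of it.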

How the data were processed

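CCs were profiled by RNA-seq with Smart-seq2, an oligo-dT method without molecular identifiers, in 34 libraries of 7 groups, read from the titles. The submitters' processing notes list Trim Galore 0.4.2, HISAT2 2.0.5 and GRCm38; the counting program and its strand setting are not given in the sources used here. The authors deposited raw read counts per gene, and RPM were computed from them by total counts. Exon lengths came from GENCODE for GRCm38.

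The members and gene lists were chosen with earlier results of these data known. edgeR 4.0.16 (R 4.3.3; TMM, filterByExpr, robust quasi-likelihood F test, two-sided, Benjamini-Hochberg over all genes) was fitted on the groups compared. Each SE of a fitted log2 fold change was derived from the F statistic, as the absolute fold change divided by the square root of F. It was not estimated separately, and it holds the same information as the F test. This also applies to the comparisons given as a description, where the SE is not used as a test. Members failing the filter were tested by exact permutation on log2(RPM + 1). Relations used 100000 draws within groups or exact permutation. Named were the members, the list genes past an adjusted p of 0.05, the 2 most abundant genes of each list where a result turned on them, and the 5 genes most like Ccl7 and most like the sum of the 8.

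The alternatives were DESeq2 1.42.0, RLE normalization, no filter beyond 1 read, at least 10 counts in every library, 1 fit of all 34 libraries, a pseudocount of 0.1, TMM scaling, the mean over the list, and leaving out each library. Leaving out 16 L replicates 18 and 21 together and scaling by total counts were added after seeing the data. The fits were tested on simulated data. None of 72 replicate pairs was identical. The labels describe cells of 1 cumulus-oocyte complex and the paper cells per animal; p-values measure the spread between libraries, which may be technical. The weight that defines low weight gainers is not given in the labels.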

Additional observations from a re-analysis of the deposited data

Results flagged for a closer look

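Within groups of 5 to 7 libraries, 11 values lay far from the others of their group by Dixon's criterion, of 60 groups tested. The chance rate of about 1 in 20 holds for independent, normally distributed values. These levels share libraries and were not checked for normality, so the 11 are not set against that rate. All 11 were the highest value of their group. For Ccl7 these were 5.67 RPM in 16-week CD replicate 9 (next 1.77) and 46.8 RPM in 16-week HFD replicate 15 (next 12.9). Per 100 reads of the macrophage list, Ccl7 reached 1.65 in 16 L replicate 18 (next 0.245), 1.60 in 4-week HFD replicate 14 (next 0.372) and 3.04 in 16-week CD replicate 9 (next 0.851). Ccl2 reached 5.67 RPM in 16 L replicate 18 (next 0.905) and 4.35 RPM in 4-week HFD replicate 14 (next 0.756). Cd68 reached 42.6 RPM in 16-week CD replicate 5 (next 20.8). Lyz2 reached 418 RPM in 4-week CD replicate 11 (next 126) and 477 RPM in 16-week HFD replicate 15 (next 223). Ctss reached 52.8 RPM in 4-week CD replicate 11 (next 17.5). Ccl2 and the Ccl7 ratio both stood out in 16 L replicate 18 and in 4-week HFD replicate 14. Ccl7 and its ratio both stood out in 16-week CD replicate 9.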

How the results depend on the processing

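For 16 L, the number of members called was 0 and became 1 with DESeq2, 2 in 1 fit of all 34 libraries, 2 with scaling by total counts, 3 without replicates 18 and 21, and 0 to 2 when each library was left out. The number of genes called, 1004, became 2382 with DESeq2, 504 without the filter, 4384 in 1 fit of all libraries, 4035 with scaling by total counts, 4145 without replicates 18 and 21, and 30 to 4635 when each library was left out (30 without 16 C replicate 1, 4635 without 16 L replicate 18). C3ar1 turned positive with scaling by total counts (0.64) and without replicates 18 and 21 (0.10), and ran from -0.67 to 0.66 when each library was left out. Cd68 did likewise (0.66 and 0.042), and ran from -0.50 to 0.015. For 4-week HFD, the number of members called stayed 0 except for 0 to 1 when each library was left out. The number of genes called, 499, became 1292 with DESeq2, 69 in 1 fit of all libraries and 8 to 1700 when each library was left out (8 without CD replicate 8, 1700 without CD replicate 11). Tyrobp turned to 0.047 with DESeq2 and 0.012 in 1 fit of all libraries. When each library was left out, Tyrobp ran from -0.50 to 0.76, C3ar1 from -0.28 to 0.11, Fcer1g from -0.50 to 0.54 and Lyz2 from -0.43 to 0.80. For 16-week HFD, the sign of Csf1r turned when a library was left out (-0.21 to 0.020), and the difference of Ccl7 in mean log2(RPM + 1) ran from 1.54 to 2.29. The relation of Ccl7 to the macrophage list in 16-week HFD ran from r = 0.21 (without replicate 15) to 0.89 (without replicate 10). The cause of these changes was not tested. Values kept their direction and side of the threshold, or stayed within the spread of the libraries, in 114 of 131 cases for 16 L, 111 of 124 for 4-week HFD and 160 of 163 for 16-week HFD; these include RLE normalization, a minimum of 10 counts in every library, and the other pseudocount, scaling and list mean. Depth limits Ccl7, Ccl2 and Emr1 most, since 3 reads are up to 2.72 RPM. No paired analysis was possible because the groups compared share no replicate numbers.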

Other observations

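The macrophage list was led by Cybb, the catalytic subunit of the phagocyte oxidase, and Cd53, a leukocyte tetraspanin. Cybb had 41.8, 11.9, 357, 44.4 and 363 RPM in 16 L replicates 18, 19, 20, 21 and 23, and 5.03, 60.8 and 4.77 RPM in 16 C. Cd53 had 237, 8.44, 53.2, 14.5 and 59.3 RPM in 16 L in that order, and 22.4, 179 and 23.6 RPM in 16 C. Ccr2, the receptor for the products of Ccl2 and Ccl7, had 52.0, 3.98, 45.2, 13.6 and 25.4 RPM in 16 L and 5.03, 61.1 and 5.84 RPM in 16 C. For these 3 genes the highest control value lay in 16 C replicate 2, the control with the most macrophage list RNA, and the groups overlapped; without it the 16 C means were 4.90, 22.98 and 5.43 RPM. Among the inducers of chemokine genes, the interleukin receptor Il1r1 was the most abundant, with 444, 321 and 494 RPM in 16 C and 18.8, 391, 97.9, 102 and 91.4 RPM in 16 L. In 16-week HFD, Cybb and Cd53 were highest in replicates 10 (93.3 and 75.2 RPM) and 15 (76.5 and 81.6 RPM), the libraries that also held the most of the whole list.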
